A study of Schizosaccharomyces pombe with 8 samples.

Results

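The genes described here are 10 core genes of RNA interference (RNAi) and heterochromatin silencing in fission yeast, Schizosaccharomyces pombe. They are ago1, chp1, tas3, rdp1, hrr1, cid12, dcr1, clr4, swi6 and chp2. They were chosen by gene identifier, and all 10 were found among the 7022 gene rows of the deposited table. Their introns are 6 of its 5361 intron rows: 1 each in ago1, rdp1 and chp2, and 3 in hrr1. The other 6 genes have no intron row. Reads on rows of the 3 centromeres, where these genes act, are given beside them.

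Wild-type cells (strain OHI246; mating type h-, with ade6-M210, leu1-32 and ura4-D18) were compared with cwf10-ΔNTE cells (strain OHI408, h- with ade6-M21X, leu1-32 and ura4-D18), which lack residues 2 to 127 of Cwf10. Cwf10 is a GTPase of the spliceosome, the fission yeast counterpart of Snu114, and NTE stands for its N-terminal extension. Both strains carry ade6, leu1 and ura4 marker alleles, and both were grown in yeast extract medium at 25 °C. Poly-A RNA was sequenced from 2 libraries of each strain. Replicates were grown jointly and then handled separately, so p-values reflect the spread between libraries, which may be technical.

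In fission yeast, transcripts of the centromeric repeats are copied into double-stranded RNA by the RDRC complex (Rdp1, Hrr1 and Cid12) and cut into small RNAs by the dicer Dcr1. Those small RNAs guide the RITS complex (Ago1, Chp1 and Tas3) back to the nascent transcripts, and RITS recruits the complex that holds Clr4, the histone H3 methyltransferase of heterochromatin. The methyl mark is bound by Chp1 and by Swi6 and Chp2, the HP1 proteins of this yeast, and the marked repeats are transcribed little. Several genes of this pathway contain introns and so need the spliceosome to make their mRNA.

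The 6 introns are shown with their sequences because the splicing results below are about these introns. Sequences are from RefSeq's ASM294v3 genome, read on the plus strand, which is the coding strand of all 4 host genes. Capitals mark the first 6 bases (the 5′ splice site), the last 3 bases (the 3′ splice site) and the branch-point-like motif closest to the 3′ end, which is CTAAC or a variant with G at the third base, T at the fifth or both, searched on the coding strand alone. Intron 1 of chp2 (II:4350559-4350595), intron 1 of hrr1 (III:2031993-2032033), intron 2 of hrr1 (III:2032496-2032537) and intron 3 of hrr1 (III:2032691-2032738) are given whole, intron 1 of rdp1 (I:1325006-1325085) and intron 1 of ago1 (III:334266-334636) by their ends.
chp2 intron 1: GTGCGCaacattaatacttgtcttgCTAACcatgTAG
hrr1 intron 1: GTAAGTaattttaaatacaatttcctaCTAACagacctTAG
hrr1 intron 2: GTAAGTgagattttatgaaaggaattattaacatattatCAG
hrr1 intron 3: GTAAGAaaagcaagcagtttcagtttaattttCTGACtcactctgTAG
rdp1 intron 1, last 30 bases: gaaggtttttcgtatCTAACgaatttaTAG
ago1 intron 1, first 30 bases: GTAAGTtcctagaaatcgcacatttttatg
ago1 intron 1, last 30 bases: attgcatcaaattaacgccttttgttgTAG

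The introns differed in their signals. The chp2 intron opens with GTGCGC, which is the 5′ splice site of 0.0566% of the 5304 introns of at least 25 bases. GTAAGT, the 5′ splice site of ago1 and of hrr1 introns 1 and 2, opens 27.4% of introns, GTATGT of rdp1 opens 19.6% and GTAAGA of hrr1 intron 3 opens 6.62%. CTAAC is the last such motif in rdp1, chp2 and hrr1 intron 1 and in 42.6% of introns, and CTGAC in hrr1 intron 3 and 5.47%. No such motif is present in the ago1 intron or in hrr1 intron 2, as in 24.2% of introns.

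They also differed in length and place. The ago1 intron has 371 bases and is longer than 98.6% of introns, whose median is 56 bases, while the chp2 intron has 37 bases and only 2.09% are shorter. The rdp1 intron has 80 bases and lies in the 5′ UTR, ahead of the start codon, so its retention would leave the coding sequence whole. The other 5 interrupt the coding sequence. Read through from the upstream exon, the ago1 intron holds an in-frame stop codon that begins at its base 10, after 129 coding bases of 2505. Introns 1 and 2 of hrr1 each hold one that begins at base 6. The chp2 intron holds none, but its 37 bases shift the frame and the first stop lies 45 bases past its end. Intron 3 of hrr1 has 48 bases, a multiple of 3, and the frame runs on to the annotated stop codon. The reference places non-coding RNAs on the opposite strand across the introns of rdp1, chp2 and ago1 and across hrr1 introns 1 and 2. Whether reads were counted by strand is not given in the sources used here, so reads from these RNAs cannot be told apart from intron reads.

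Reads on gene rows numbered between 36186264 and 42802817 in the 4 libraries, and reads on intron rows between 174618 and 296204. The deletion was visible in cwf10 itself: exon-exon reads over its intron 1 numbered 98 and 85 in wild type against 0 and 0 in cwf10-ΔNTE. Gene levels are given as counts per 1000000 library reads (CPM), scaled by the TMM method. A log2 change is cwf10-ΔNTE minus wild type, and its test is edgeR's quasi-likelihood test with Benjamini-Hochberg (BH) adjustment over all rows of a kind, with a threshold of 0.05.

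Of the 10 silencing genes, 7 were higher in cwf10-ΔNTE, against 39.6% of the 6536 genes tested, and 2 were lower, against 38.5%. The 9 that passed make up 90.0% of the genes, where 78.1% of all tested genes passed in either direction. Scaled by library totals alone, 3248 of all genes were called higher and 1879 lower, in place of 2585 and 2519, and the silencing genes again gave 7 and 2. Their changes were small: the fold change ran from 0.856 in ago1 to 1.31 in clr4, and the median log2 change was 0.10, against 0.01 over all tested genes. The change of clr4 was larger in size than that of 73.0% of tested genes, and that of cid12 than 15.1%. In each of the 10 genes the libraries of the strains did not overlap, which was also so for 88.7% of all tested genes. The rows of clr4, cid12, dcr1, hrr1 and rdp1 overlap other gene rows, and the levels of these 5 may hold reads of their neighbours.

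**Figure D1:**
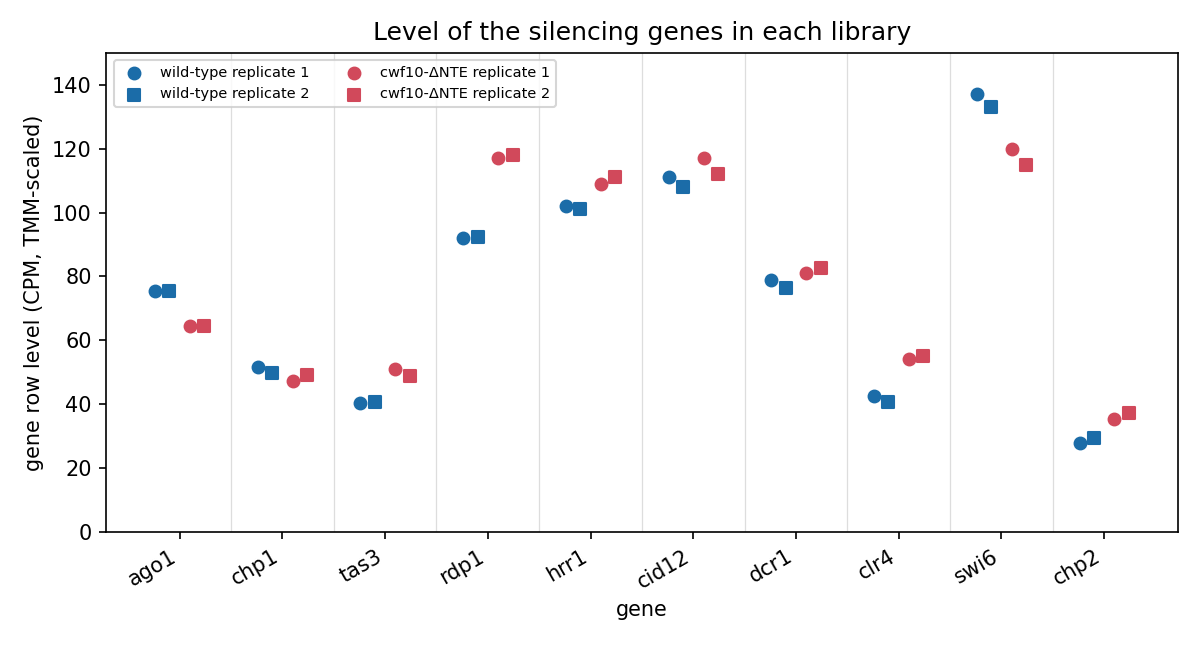
Level of each of the 10 silencing genes (CPM, TMM-scaled, linear axis from 0) in the 2 wild-type libraries (blue) and the 2 cwf10-ΔNTE libraries (red), with circles for replicate 1 and squares for replicate 2. The red points lie below the blue ones for ago1, chp1 and swi6 and above them for the other 7 genes.

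The 3 genes of RITS did not move together. The gene for the small-RNA-binding protein, ago1 (SPCC736.11, III:334103-337070), had 3014 and 3121 reads in the wild-type libraries and 2400 and 2829 with the deletion. That is 75.4 ± 0.0582 CPM against 64.6 ± 0.0952 (SD, n = 2 each), and ago1 fell by 0.22 on the log2 scale (SE 0.0304; edgeR, BH-adjusted p = 2e-07). The gene for the scaffold that joins Ago1 to Chp1, tas3 (SPBC83.03c, II:1514006-1516211), had 1605 and 1683 reads in wild type against 1902 and 2134 in the mutant. Its level rose from 40.4 ± 0.328 to 49.9 ± 1.67 CPM, by log2 0.30 (SE 0.0384; edgeR, BH-adjusted p = 6.26e-08). For chp1 (SPAC18G6.02c, I:2210810-2214664), the chromodomain member, reads numbered 2056 and 2060 in wild type against 1751 and 2149 in the mutant. At 50.6 ± 1.22 and 48.1 ± 1.44 CPM, a log2 change of -0.07 (SE 0.0372), it did not pass (edgeR, BH-adjusted p = 0.0797). Without mutant replicate 2 the chp1 change was -0.10 and passed (edgeR, BH-adjusted p = 0.0477), and under scaling by library totals alone it was 0.01. None of the 3 rows overlaps another gene row.

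The 3 genes of RDRC were all higher in the mutant. The RNA-dependent RNA polymerase gene rdp1 (SPAC6F12.09, I:1324591-1329061) had 3673 and 3825 reads in wild type against 4346 and 5158 in the mutant. Its level rose from 92.1 ± 0.298 to 117 ± 0.74 CPM (SD, n = 2 each), by log2 0.35 (SE 0.0254; edgeR, BH-adjusted p = 1.17e-12). The row shares 44 of its bases with the exo8 row on the opposite strand, which fell by 0.12 on the log2 scale. The helicase gene hrr1 (SPCC1739.03, III:2029261-2034205) had 4075 and 4199 reads against 4069 and 4847, which is 102 ± 0.432 and 110.0 ± 0.98 CPM, a log2 rise of 0.11 (SE 0.0253; edgeR, BH-adjusted p = 0.000212). Of the hrr1 row 26.7% overlaps the dms1 row, whose own log2 change was -0.03.

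The third of these, cid12 (SPCC663.12, III:1655666-1660080), encodes a poly(A)-polymerase-like enzyme. It had 4442 and 4470 reads in wild type against 4369 and 4883 in the mutant, or 110.0 ± 2.3 and 114 ± 4.14 CPM, a log2 change of 0.06 (SE 0.0273; edgeR, BH-adjusted p = 0.0421). The nearest libraries of the strains, wild-type replicate 1 and mutant replicate 2, lay at 111 and 112 CPM. The call was lost without wild-type replicate 2 (edgeR, BH-adjusted p = 0.267), without mutant replicate 1 (0.426) and in DESeq2 (0.272). Of the cid12 row 64.2% is shared with the rows of naa50 and trp663, of which naa50 fell by 0.22 and trp663 rose by 0.35 on the log2 scale.

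The dicer gene dcr1 (SPCC188.13c, III:1504949-1510574), whose product cuts double-stranded RNA into small RNAs, had 3149 and 3163 reads in wild type against 3014 and 3620 in the mutant. At 77.6 ± 1.73 and 81.8 ± 1.21 CPM its log2 change was 0.08 (SE 0.0294; edgeR, BH-adjusted p = 0.0183). The call was lost without wild-type replicate 2 (edgeR, BH-adjusted p = 0.174), without mutant replicate 2 (0.129) and in DESeq2 (0.196). Of the dcr1 row 33.8% overlaps the spn6 row, which rose by log2 0.12.

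The change was highest in the gene for the histone methyltransferase, clr4 (SPBC428.08c, II:453996-458487). It had 1693 and 1690 reads in wild type against 2008 and 2416 in the mutant, and rose from 41.6 ± 1.11 to 54.6 ± 0.872 CPM (SD, n = 2 each), by log2 0.39 (SE 0.0371; edgeR, BH-adjusted p = 2.44e-10). The row runs well past the coding sequence (456575 to 458047), and 54.5% of it is shared with the row of meu6 on the opposite strand. The meu6 row had 1006 and 1042 reads in wild type against 1251 and 1485 in the mutant, a log2 rise of 0.42, and the source of the reads in the shared stretch cannot be told apart.

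The 2 HP1 genes moved in opposite directions. For swi6 (SPAC664.01c, I:1702406-1704073) there were 5491 and 5511 reads in wild type against 4458 and 5050 in the mutant, and the level went from 135 ± 3.09 to 118 ± 3.13 CPM. It fell by 0.20 on the log2 scale (SE 0.0257; edgeR, BH-adjusted p = 6e-08). For chp2 (SPBC16C6.10, II:4349487-4351244) there were 1109 and 1216 reads against 1310 and 1623, and the level rose from 28.6 ± 1.13 to 36.1 ± 1.33 CPM, by log2 0.34 (SE 0.046; edgeR, BH-adjusted p = 1.82e-07). Neither row overlaps another.

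Per kilobase of exon, swi6 had the highest wild-type level at 81.1 ± 1.85 CPM (SD, n = 2) and clr4 the lowest at 9.26 ± 0.247. Between them came ago1 at 29.0, cid12 at 24.8, hrr1 at 21.1, rdp1 at 21.0, tas3 at 18.3, chp2 at 16.6, dcr1 at 13.8 and chp1 at 13.1 CPM per kilobase. Of neighbours in that order, hrr1 and rdp1 (SDs of 0.0896 and 0.0679) were the only pair to differ by less than the sum of their SDs. In the mutant swi6 was still the highest at 70.5 ± 1.88, but rdp1 at 26.7 ± 0.169 lay above ago1 at 24.9 ± 0.0366. At the other end chp1, at 12.5 ± 0.374, and clr4 differed by less than the sum of their SDs. These values are for whole rows, so row length and shared reads enter the order. Other gene rows share 54.5% of the clr4 row and 64.2% of the cid12 row.

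All 6 introns had more reads inside them relative to their host gene in the mutant, on average, and 3 of them passed the test. Against 47.1% of the 5038 introns tested, 50.0% of these rose, with a median log2 change of 0.99 against 0.81 over all introns, so their share called lay near that of introns at large. The exon-exon reads, which come from spliced RNA, fell for 2 of the 6 introns, against 19.8% of 4861 tested junctions, with a median of -0.45 against -0.15. Reads across an exon-intron boundary, which come from unspliced RNA, rose for 1 of the 6, against 30.1% of 5021. These 3 kinds of read were tested relative to the reads of the host gene. Per 1000 host reads, the lower mutant library exceeded the higher wild-type library in intron reads for 4 of the 6 introns, against 71.2% of tested introns, and in exon-intron reads for 2 of 6, against 55.1%. In exon-exon reads the strains were apart the other way, with the mutant lower, for 4 of 6, against 51.1%.

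**Figure D2:**
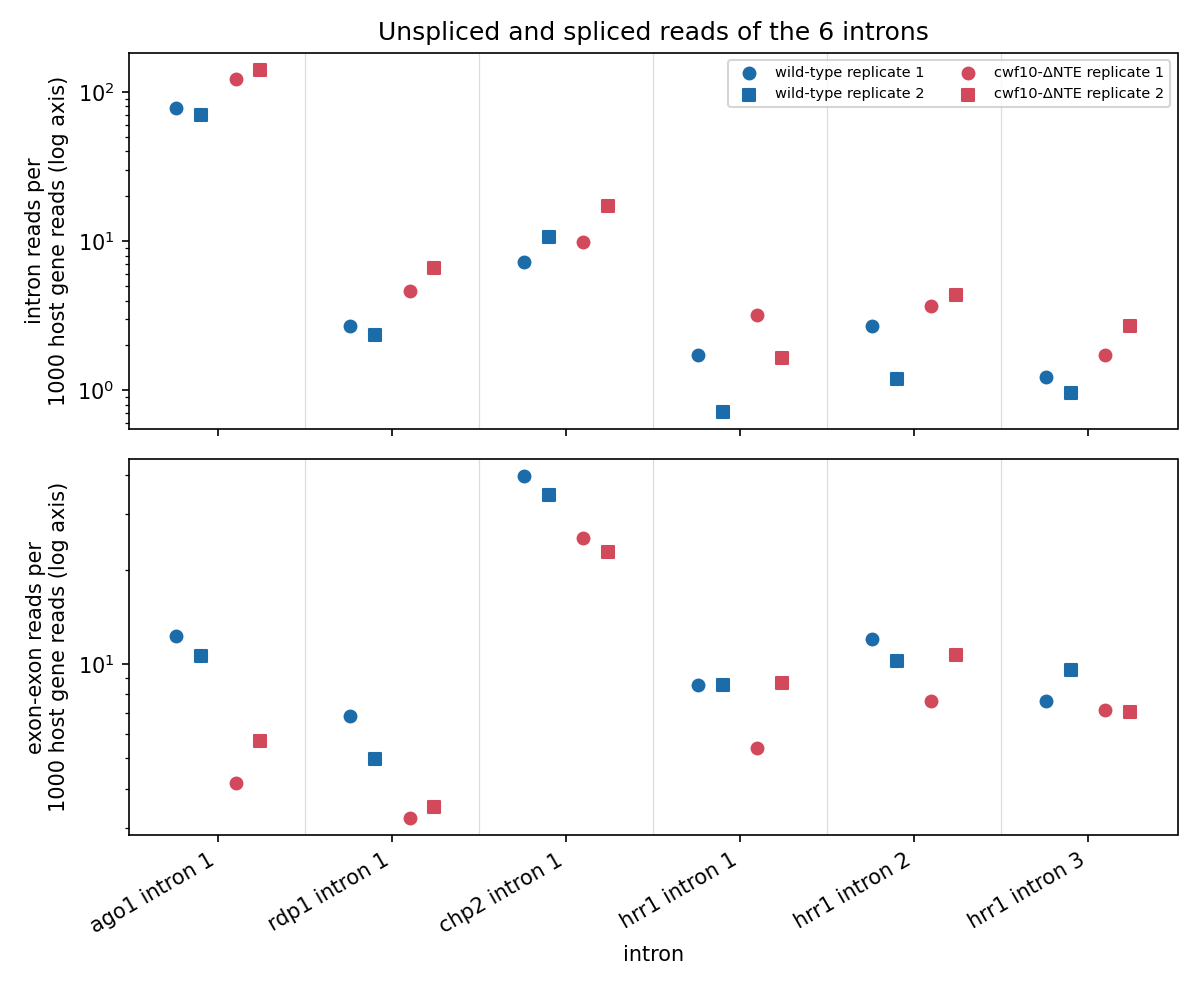
Intron reads (top) and exon-exon reads (bottom) per 1000 reads of the host gene for the 6 introns, on log axes, in the 2 wild-type libraries (blue) and the 2 cwf10-ΔNTE libraries (red), with circles for replicate 1 and squares for replicate 2. The ago1 intron stands at 70.5 to 140 intron reads per 1000 host reads, far above the other 5, and its red points are above the blue ones in the top panel and below them in the bottom panel.

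Of the 6 introns the ago1 intron had the most reads relative to its host in both strains, and its exon-exon reads fell most. Its rise in intron reads was the fifth of the 6 in size. It held 235 and 220 reads in wild type against 293 and 395 in the mutant, although the host gene was lower there. Per 1000 ago1 reads these are 78.0 and 70.5 against 122 and 140, a log2 rise of 0.82 (SE 0.0973; edgeR, BH-adjusted p = 1.24e-07). Exon-exon reads numbered 37 and 33 in wild type against 10 and 16 in the mutant, and fell by 1.19 on the log2 scale relative to the host (SE 0.32; edgeR, BH-adjusted p = 0.00382). That call was lost without wild-type replicate 1 (edgeR, BH-adjusted p = 0.0924), without mutant replicate 1 (0.0604) and in DESeq2 (0.24), while the rise of intron reads passed under each alternative tried. The fall of the junction was larger than that of 95.6% of tested junctions, and the rise of intron reads was larger than that of 50.8% of tested introns. With gene library sizes as offset, so not relative to the host, the log2 change of exon-exon reads was -1.41 (edgeR, BH-adjusted p = 9.22e-05).

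In wild type the ago1 intron already had a higher unspliced share than most introns. A non-coding RNA on the opposite strand overlaps this intron, so its exon-intron and intron reads may not all come from unspliced ago1 RNA. The introns compared differ in length, and whether length enters the share was not tested. The unspliced share, exon-intron reads over exon-intron plus exon-exon reads, was 53.8% and 56.0% in the wild-type libraries, higher than in 91.8% of the 4980 introns with enough reads to compare. In the mutant it was 75.6% and 76.1%, so that the groups did not overlap. Per base, reads inside the intron reached 51.9% of the ago1 row's reads per exon base in wild type and 92.1% in the mutant. On this measure the median tested intron went from 11.3% to 21.0%. Whether the reads of a gene row include those of its introns is not given in the sources used here. Exon-intron reads numbered 43 and 42 in wild type against 31 and 51 in the mutant, a log2 change of 0.18 relative to the host that did not pass (edgeR, BH-adjusted p = 0.638).

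The intron in the 5′ UTR of rdp1 rose by log2 1.15 relative to its host (SE 0.368), from 10 and 9 reads in wild type to 20 and 34 in the mutant (edgeR, BH-adjusted p = 0.0124). Its exon-intron reads numbered 25 and 13 against 33 and 55, a log2 rise of 0.86 (SE 0.283; edgeR, BH-adjusted p = 0.0104). Exon-exon reads numbered 25 and 19 against 14 and 18, a log2 change of -0.80 that did not pass (edgeR, BH-adjusted p = 0.0849). The unspliced share went from 50.0% and 40.6% to 70.2% and 75.3%. Both rises rest on few reads. The intron reads no longer passed without wild-type replicate 2 (edgeR, BH-adjusted p = 0.055), without mutant replicate 2 (0.179) or in DESeq2 (0.168). The exon-intron reads no longer passed without wild-type replicate 2 (0.369), where the log2 change was 0.44, without mutant replicate 2 (0.367) or in DESeq2 (0.332).

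For the chp2 intron, with its rare GTGCGC splice site, the spliced reads were fewer in the mutant. Exon-exon reads numbered 44 and 42 in wild type against 33 and 37 in the mutant, while reads of the gene rose. Relative to the host they fell by 0.63 on the log2 scale (SE 0.235; edgeR, BH-adjusted p = 0.0462). That p passed the threshold narrowly and ran from 0.085 to 0.257 when any 1 of the 4 libraries was left out. It was 0.0553 with the replicate number as a block, 0.364 with gene library sizes as offset and 0.534 in DESeq2. Reads inside the intron numbered 8 and 13 against 13 and 28, a log2 change of 0.62 that did not pass (edgeR, BH-adjusted p = 0.198). It did pass with gene library sizes as offset (0.0425) or with the exon-exon reads of the same intron as offset (0.0301). The unspliced share was 36.2% and 51.2% in wild type and 59.3% in both mutant libraries.

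The 3 introns of hrr1 had few reads each, and 1 passed a test. Intron 2, one of the 2 without CTAAC or a searched variant of it, held 11 and 5 reads in wild type against 15 and 21 in the mutant, a log2 rise of 1.05 relative to the host (SE 0.425; edgeR, BH-adjusted p = 0.0444). The call was lost without wild-type replicate 2, where the log2 change was 0.58 (edgeR, BH-adjusted p = 0.339), without mutant replicate 1 (0.133), without mutant replicate 2 (0.267) and in DESeq2 (0.292). Intron 1 held 7 and 3 reads against 13 and 8, and intron 3 held 5 and 4 against 7 and 13. Their log2 changes of 0.95 and 1.02 were close in size to that of intron 2 and did not pass (edgeR, BH-adjusted p = 0.162 and 0.124). The exon-exon reads of the 3 introns had log2 changes of -0.26, -0.26 and -0.28, and none passed. For intron 1 the unspliced share was 23.9% and 21.7% in wild type against 38.9% and 32.3% in the mutant. The mutant libraries lay above the wild-type ones in intron 3 as well (42.6% and 40.3% against 45.3% and 48.5%) and overlapped them in intron 2 (a mean of 34.3% ± 6.06 against 43.3% ± 11.7, SD, n = 2 each).

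**Figure D3:**
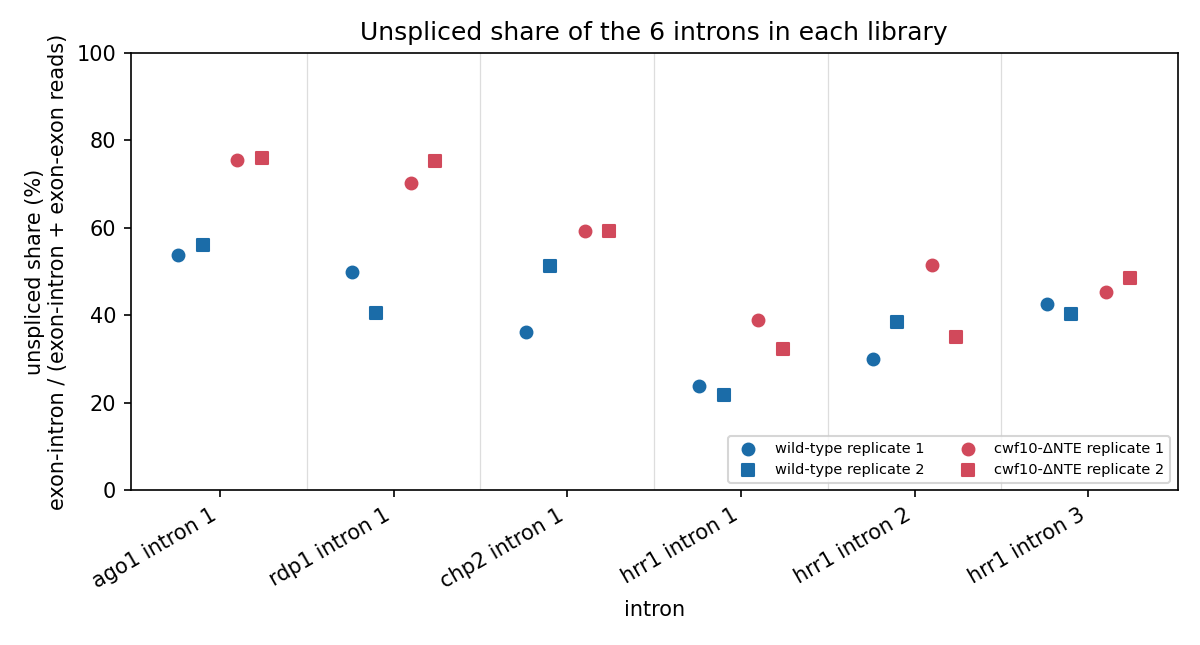
Unspliced share of each of the 6 introns (percent, exon-intron reads over exon-intron plus exon-exon reads; axis from 0 to 100) in the 2 wild-type libraries (blue) and the 2 cwf10-ΔNTE libraries (red), with circles for replicate 1 and squares for replicate 2. The red points are above the blue ones in 5 introns, overlap in hrr1 intron 2, and are highest for ago1 and rdp1.

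Summed over the silencing genes, intron reads per 1000 gene reads were 9.11 and 8.21 in wild type against 12.2 and 14.4 in the mutant, 1.53 times the wild-type mean. The ago1 intron supplied most of these reads. Without that intron, but with ago1 kept in the gene reads, the means were 1.23 ± 0.179 and 2.65 ± 0.496 (SD, n = 2 each), a ratio of 2.16. The summed unspliced share went from 40.1% and 43.4% to 56.8% and 54.7%, and without ago1 from 36.3% and 40.2% to 54.1% and 50.8%. Over all introns with enough reads the median of the single-intron unspliced shares was 28.8% in wild type and 35.9% in the mutant. A median is not a sum, so these values are not on the scale of the summed share. Reads on all intron rows also rose, from 174618 and 180057 in wild type to 251877 and 296204 in the mutant. Reads on all gene rows numbered 40857033 and 42802817 against 36186264 and 42593150. For each sum over the silencing genes the two-sided exact permutation p was 0.333, the smallest p that 2 against 2 libraries allow.

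Of 34 further genes in 5 lists of silencing and anti-silencing factors, 10 were higher and 13 lower in the mutant, and 11 did not pass. The 67.6% that passed compares with 78.1% of all tested genes. Of the 34 rows 29 overlap another gene row and may hold its reads, and among the genes with a called change named below the rows of raf2, clr2 and paf1 alone do not. Their introns resembled introns at large: 25 of 56 tested introns rose, or 44.6%, and none fell (edgeR, BH-adjusted p under 0.05), against 47.1% and 0.298% of all introns.

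In the CLRC list, which holds partners of Clr4 in its ubiquitin ligase complex, its recruiter stc1 and the demethylase gene lid2, 2 of 6 genes were higher and 1 was lower, where 39.6% and 38.5% of all tested genes were. The scaffold gene rik1 rose by log2 0.27, from 78.6 and 80.4 CPM to 96.9 and 94.9, and lid2 rose by log2 0.12. The raf2 gene fell by 0.31, from 54.5 and 55.4 CPM to 44.5 and 44.3. In the SHREC list, a histone deacetylase complex, clr2 rose by log2 0.22 and the other 3 genes (clr1, clr3 and mit1) had log2 changes of 0.01 to 0.02 that did not pass. These 2 lists have no tested intron.

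The list of Argonaute chaperones and RNAi cofactors held 29 tested introns in 5 genes, of which 13 rose, with a median log2 change of 0.95, and 9 of its 29 tested junctions fell, where 47.1% of all introns rose and 19.8% of all junctions fell. In dsh1, which encodes a partner of Dcr1, 7 of 8 introns rose and 5 junctions fell. Its intron 5 (II:424374-424423) had 2 and 4 reads in wild type against 25 and 21 in the mutant, a log2 rise of 2.96 relative to the host (SE 0.492; edgeR, BH-adjusted p = 2.1e-05), with the junction falling by 1.21. In arb2, a gene of the Argonaute chaperone complex, intron 2 had 1 and 2 reads against 8 and 10, a log2 rise of 2.40 (edgeR, BH-adjusted p = 0.00889). The arb2 call was lost without mutant replicate 1 (0.0536) or mutant replicate 2 (0.0665). By gene level, ers1 rose by log2 0.41 and arb1, of the same chaperone complex as arb2, by 0.35. The nuclease gene eri1 fell by 0.20 and cid14, of the TRAMP polymerases, by 0.24. The dsh1 row itself had a log2 change of -0.07 and did not pass (edgeR, BH-adjusted p = 0.0845).

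Among 14 other silencing factors 4 genes were higher and 8 lower, where 39.6% and 38.5% of all tested genes were. The deacetylase gene sir2 rose by log2 0.59, from 48.9 and 47.1 CPM to 71.9 and 73.0. The deacetylase gene clr6 rose by 0.11. The CENP-B-like gene cbp1 fell by 0.64, from 96.0 and 97.1 CPM to 62.0 and 61.5, and the FACT subunit gene spt16 by 0.31. Of the 23 tested introns of this list 10 rose, and in clr6 5 of 12, where 47.1% of all introns did. Of the list's 24 tested junctions 5 fell, where 19.8% of all did, and 4 of these were in sir2, in which 3 of 5 introns rose. No clr6 junction fell. Its intron 6 went from 2 and 3 reads to 19 and 21, by log2 2.83 relative to the host. Its intron 5 went from 0 and 2 reads to 5 and 7, by log2 2.34 (edgeR, BH-adjusted p = 0.0439). The intron 5 call was lost without wild-type replicate 1 (0.212), without mutant replicate 1 (0.129) or without mutant replicate 2 (0.189).

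Of 4 factors that counter silencing, mst2 rose by log2 0.08, paf1 fell by 0.20 and leo1 by 0.09, and epe1, at -0.01, did not pass. Scaled by library totals alone, leo1 changed by -0.01. The mst2 gene no longer passed without wild-type replicate 1, where its log2 change was 0.07, or in DESeq2 (BH-adjusted p = 0.0713). Intron 1 of leo1 rose by log2 1.05, from 45 and 46 reads to 84 and 93. Intron 1 of mst2 rose by log2 0.54, from 43 and 49 reads to 56 and 85. That call was lost without wild-type replicate 1 (log2 0.49), without mutant replicate 2 (log2 0.33) and in DESeq2 (BH-adjusted p = 0.246).

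The centromeric rows carried few reads in both strains, and 22 of the 31 rows with any read had more in the mutant. In 6 rows there were fewer, none of them with more than 5 reads in wild type, and 3 rows were equal. Centromeric rows were taken as rows between the first and last RNA that the reference annotates as centromeric or centromere-proximal: I:3751801-3790207, II:1597411-1648122 and III:1066011-1142663. These spans hold 85 gene rows, 53 of them for tRNAs, and 82 intergenic rows. Of the 167 rows 136 are listed at 0 in all 4 libraries. How reads matching several places were counted is not given in the sources used here, so a row at 0 in this repeated sequence does not mean that it was not transcribed.

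Of 12 centromeric rows with enough reads to test, 10 were higher in the mutant and none was lower (edgeR, BH-adjusted p under 0.05). They are 5 of 6 gene rows and 5 of 6 intergenic rows, where 39.6% of all gene rows tested and 18.4% of 2426 intergenic rows were higher, and 38.5% and 7.83% lower. The shares cannot be read against each other, since 6 of the 12 rows had at most 1 read in wild type and had enough reads only through the mutant, so that they could differ in 1 direction alone. Of the 6 rows with at least 10 wild-type reads, 4 were higher (2 of 3 gene rows and 2 of 3 intergenic rows) and 2 did not pass. Both counts were 4 or 5 when any 1 library was left out. With spans set by RNAs annotated as centromeric alone, a choice made after seeing the data, 4 gene rows and 2 intergenic rows were higher.

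**Figure D4:**
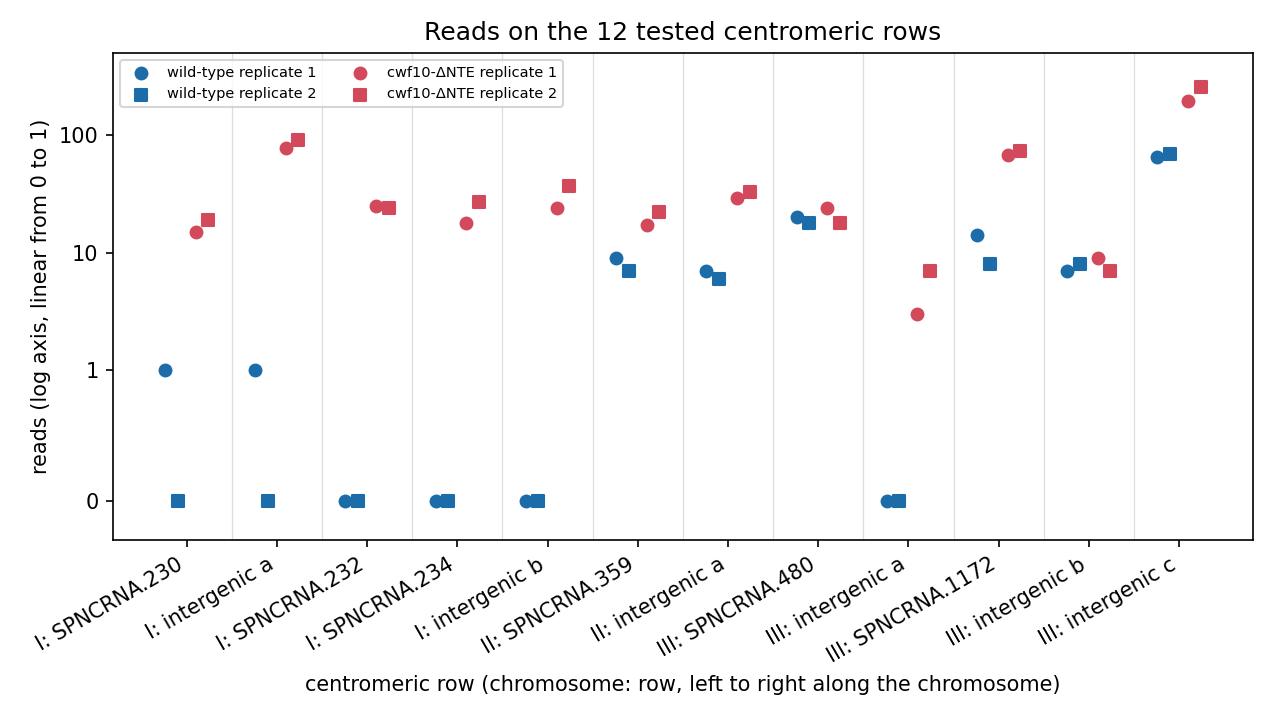
Reads (log axis, linear from 0 to 1) on the 12 tested centromeric rows, ordered along chromosomes I, II and III, in the 2 wild-type libraries (blue) and the 2 cwf10-ΔNTE libraries (red), with circles for replicate 1 and squares for replicate 2. On the 5 rows of centromere I the wild-type libraries hold 0 or 1 read and the mutant libraries 15 to 91.

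The contrast was largest at centromere I. Its rows together held 4 and 2 reads in wild type against 166 and 200 in the mutant, which is 0.0742 ± 0.0366 against 4.51 ± 0.0765 CPM (SD, n = 2 each), a ratio of 60.8 (95% interval 27.9 to 168, for counting error alone). SPNCRNA.230 (I:3753730-3754811) had 1 and 0 reads against 15 and 19 (edgeR, BH-adjusted p = 1.77e-06). SPNCRNA.232 (I:3762865-3763969) had 0 and 0 reads against 25 and 24, at least 16.4-fold higher over a floor of 3 counts for the wild-type group (edgeR, BH-adjusted p = 2.74e-08). SPNCRNA.234 (I:3786105-3787136) had 0 and 0 against 18 and 27, at least 15.1-fold higher (edgeR, BH-adjusted p = 5.83e-08). The intergenic rows beside these RNAs showed the same contrast. The one at I:3754812-3761022 had 1 and 0 reads against 78 and 91 (edgeR, BH-adjusted p = 6.94e-27). The one at I:3787137-3789584 had 0 and 0 against 24 and 37, at least 20.4-fold higher (edgeR, BH-adjusted p = 8.86e-14). All these rows of centromere I entered the test only through their mutant reads. They could not have been called lower, so their p-values are no support for the direction.

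Centromeres II and III held more reads in wild type, and their ratios were lower. At centromere II the sums were 21 and 19 reads against 49 and 58, a ratio of 2.68 (95% counting interval 1.85 to 3.97). SPNCRNA.359 (II:1602773-1604997) had 9 and 7 reads against 17 and 22 (edgeR, BH-adjusted p = 0.00443), a call lost without wild-type replicate 2 (0.054) and in DESeq2 (0.0783). The intergenic row at II:1641544-1643848, which runs past the last RNA annotated as centromeric, had 7 and 6 against 29 and 33 (edgeR, BH-adjusted p = 5.64e-07). At centromere III the sums were 115 and 107 against 309 and 370, a ratio of 3.07 (2.64 to 3.59). Most of these lay on the intergenic row at III:1139619-1142191, near the right edge of the span, with 65 and 69 reads against 194 and 256 (edgeR, BH-adjusted p = 3.24e-22). SPNCRNA.1172 (III:1068597-1069142) had 14 and 8 against 68 and 73 (edgeR, BH-adjusted p = 1.7e-09). The intergenic row at III:1067165-1068028 had 0 and 0 against 3 and 7, and its call was lost without either wild-type library (edgeR, BH-adjusted p = 0.0776 and 0.078). SPNCRNA.480, at 20 and 18 against 24 and 18, and the intergenic row at III:1069245-1071092, at 7 and 8 against 9 and 7, did not pass. Within the span of RNAs annotated as centromeric alone, centromere III had reads on 1 row, at 1 and 0 against 0 and 1. All its other rows with reads lay outside that span, near the edges of the wider one. The row at III:1067165-1068028, without wild-type reads, entered the test only through the mutant and could not be called lower.

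Over the 3 centromeres the sums were 140 and 128 reads in wild type against 524 and 628 in the mutant, or 3.30 ± 0.292 against 14.2 ± 0.188 CPM, a ratio of 4.31 (95% counting interval 3.78 to 4.95). With the spans set by centromeric RNAs alone the sums were 12 and 8 against 182 and 224, a ratio of 20.3 (13.0 to 33.7). The exact permutation p for these sums was 0.333, the smallest possible. In the spans of centromeric RNAs alone most mutant reads lay at centromere I, so the ratio there mainly reflects centromere I. At centromere II nearly all lay on SPNCRNA.359, with 9 and 7 reads against 17 and 22. Centromere III had 1 read in each strain. By whole gene row, the silencing genes in the same libraries changed by no more than 1.31-fold. That limit does not cover spliced reads. Exon-exon reads fell for 2 of the 6 introns, and those of ago1 were at 0.438 of wild type relative to the host. Both of these calls were lost under some alternatives. Whether any of these changes bears on the centromeric reads was not tested.

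A further row under heterochromatin, tlh2 near an end of chromosome II (II:4526885-4532899), which encodes a RecQ-like helicase, had 126 and 111 reads in wild type against 1468 and 1766 in the mutant. Its level rose from 2.92 ± 0.335 to 39.9 ± 0.633 CPM, by log2 3.78 (SE 0.0745; edgeR, BH-adjusted p = 4.31e-25). Near-identical copies of this gene lie at other chromosome ends, so reads may come from any of them. The tlh1 row and the Mi and Mc rows of mat1 and mat3 are listed at 0 in all 4 libraries and could not be tested.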

How the data were processed

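Poly-A RNA libraries, 2 of wild type and 2 of cwf10-ΔNTE, were sequenced with a stranded kit, and only first reads were used, per the labels' protocols. The 8 listed samples include the second reads, which were left out. The submitters' processing notes list CASAVA 1.8.2 and Bowtie 0.12.7. For the genome build, the annotation and multiply matching reads, the authors' choice is not given in the sources used here. In the RefSeq genome ASM294v3, 99.3% of the 6844 gene rows matched by identifier share a start or end with the deposited rows, and chromosome I has the length of the file's last row end.

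The authors deposited raw read counts per gene, intron and intergenic row, and counts of exon-intron reads, per the file headers. They also deposited log2 splicing efficiencies, per the file headers, from which exon-exon counts were solved, whole within 0.001 for all introns. A further 6 per-library columns of log2 values were not used.

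Tests used edgeR 4.0.16 (quasi-likelihood) in R 4.3.3, with TMM scaling and filterByExpr for genes. Intron, exon-exon and exon-intron counts were fitted with an offset, the log of 1 plus the host gene's reads, where the intron had 10 or more reads in all and its host 50 or more in each library. Intergenic rows had at least 10 summed reads and the gene scaling. Unspliced shares are compared over introns with at least 20 boundary and junction reads in wild type. DESeq2 1.42.0 was an alternative, with other scalings, filters, offsets, a replicate block and each library left out. The main edgeR fits, but not the alternatives, were checked on simulated data with a single fixed spread between libraries. Summed shares used an exact permutation test (scipy 1.17.1), and intervals are exact at 95% for counting error alone. Replicate numbers did not pair the libraries: the differences between replicates 1 and 2 of the strains correlated at -0.0251 over 6151 gene rows. The members and gene lists were chosen with earlier results of these data known. All members and their introns are named, and from each list up to the 2 highest and 2 lowest log2 changes past the threshold; dsh1 counts, genes that did not pass and further values of a named gene were added after their values were seen.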

Additional observations from a re-analysis of the deposited data

How the results depend on the processing

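Each strain has 2 libraries, and 5 of the 6 introns held few reads. Of 496 alternative values for 60 single genes, introns and rows, 444 kept direction and call, 42 no longer passed, 3 newly passed and 7 changed sign. The cause was not tested. With library totals as the only scaling, all genes shifted from a median log2 of 0.01 to 0.09, 3248 were higher and 1879 lower in place of 2585 and 2519, and chp1 was at 0.01. Some log2 changes turned sign when a library was left out. Boundary reads ranged from -0.06 (without wild-type replicate 1) to 0.62 for chp2, from -0.10 (without mutant replicate 2) to 0.38 for ago1, from -0.01 (without mutant replicate 1) to 0.48 for hrr1 intron 2, and from -0.03 (without wild-type replicate 1 or mutant replicate 2) to 0.15 for hrr1 intron 3, and junction reads of hrr1 intron 1 from -0.66 to 0.01 (without mutant replicate 1). Leaving out 1 library gave 1378 to 2105 retained introns and 2 to 18 that fell, 427 to 704 junctions that fell and 8 to 21 that rose, and 901 to 1238 introns with higher and 13 to 31 with lower boundary reads. Among the silencing genes it gave 1 to 3 retained introns, 0 to 1 lower junctions and 0 to 1 introns with higher boundary reads. DESeq2 gave 1125 and 1, 190 and 1, and 588 and 5, and for the silencing genes 1, 0 and 0. Gene library sizes as offset gave 67 introns that fell, 1676 junctions that fell, 289 that rose and 1 among the silencing genes, and exon-exon reads as offset 32 introns that fell. With the replicate block 1 junction of the silencing genes fell, and no other call on them changed. Spans of centromeric RNAs alone left 2 higher intergenic rows.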
